A study of Homo sapiens with 28 samples.

Results

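The genes described here are 60 genes of the long arm of human chromosome 13 (13q), listed in order along the arm from ZMYM2 nearest the centromere to UPF3A. Their RNA levels were followed in embryonal carcinoma (EC) cell lines, which come from germ cell tumours, and set against embryonic stem (ES) cell lines, which come from embryos. Genes were found by symbol, current or older, among the features of the array: 51 had a gene-level transcript cluster annotated to that gene alone, 7 had only exon-level probesets (WASF3, MTIF3, HMGB1, BRCA2, TPT1, TRIM13 and TFDP1), and 2 (VWA8 and UPF3A) were not read. In all, 22011 clusters and 287329 probesets were measured, and 208 further clusters with a single symbol lay on chromosome 13. The genes were chosen by their differences between EC and ES lines on these arrays, so the levels relative to ES are given as a description. Calls of a fit across all clusters for that contrast are only counted, near the end and again under other settings. They stand beside those of all clusters, and nothing is read from them.

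The 14 arrays covered 3 groups. The 6 ES lines (Shef3, Shef5, Shef6, Shef7, H9 and H14, n = 6) grew on a layer of inactivated mouse fibroblasts (feeders), in serum-replacement medium with FGF. The 5 EC lines (2102Ep, 833KE, NCCIT, NTERA2 and TERA1, n = 5) grew on plastic with fetal calf serum, and 2102Ep, 833KE and NTERA2 (n = 3) had a further culture each on feeders with the medium of the ES lines. Cells of every group had been sorted for the surface antigen SSEA3, a marker of the undifferentiated state. Each array is another line or growth condition, so the spread within a group is a spread between lines and not between repeat cultures. In bulk RNA, fewer cells expressing a gene and less RNA per cell cannot be told apart.

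Germ cell tumours are usually aneuploid, with too many or too few copies of some chromosomes or arms, and the chromosome complement differs between EC lines. Genes of 13q have no function in common: the arm holds regulators of growth such as LATS2, FOXO1 and ING1, parts of nuclear transport and RNA processing, and housekeeping enzymes. Neighbours on an arm share their DNA copy number, which was not analysed here.

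Levels are deposited log2 values, and 1 unit is a doubling. For the relative level, the median of the brighter clusters of an array (11006 clusters whose mean over the 14 arrays was at or above the median of all clusters, 6.30) was subtracted, and then the mean of the 6 ES arrays. On this scale the median of all clusters lay between -0.19 and 0.09 in the 14 arrays. The deposited array medians ranged from 6.19 to 6.39. Of the 51 genes, 42 were among the brighter clusters and 9 were dim. Pluripotency markers read at gene level were high in every group: the median of 7 of them (LIN28A, LIN28B, DPPA4, ZFP42, DNMT3B, L1TD1 and PODXL) was 10.25 to 11.02 in ES arrays, 10.52 to 11.25 in EC arrays on plastic and 10.32 to 11.02 in EC arrays on feeders. POU5F1, NANOG, SOX2 and TDGF1 had only exon-level probesets and are not in these medians. The brightest probeset of each was at 7.25 or above in every array. The labels number the arrays with codes whose meaning is not stated. They fall into 4 low codes, up to 13 (H14, Shef5, and NTERA2 and 2102Ep on feeders), and 10 high codes, from 17. Both low-code ES arrays lay below all high-code ES arrays in 15 of the 51 genes (16.1% of all clusters). They lay above them in 12 (15.4% of all clusters). Values against ES arrays of the same code set are therefore given beside several medians and for some single genes. The other single-gene relative levels, also those of low-code arrays, are against all 6 ES arrays.

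The EC lines differed from each other in the level of the 13q genes far more than the ES lines did. In 2102Ep most of the genes were below every ES line, in TERA1 more were above the ES range than below it, and NCCIT lay close to the ES lines. The median relative level of the 51 genes was -0.05 to 0.09 in the 6 ES arrays (mean 0.01, SD 0.06). On plastic it was -0.57 in 2102Ep, -0.20 in 833KE, -0.14 in NCCIT, 0.13 in NTERA2 and 0.25 in TERA1 (mean -0.11, SD 0.32, n = 5). On feeders it was -0.77 in 2102Ep, -0.45 in NTERA2 and -0.30 in 833KE (mean -0.51, SD 0.24, n = 3). All 8 EC medians were outside the range of the ES medians. The ES mean is the reference, so ES medians lie near 0, and this was not particular to chromosome 13. Brighter genes of chromosome 1 had medians of 0.13 to 0.38 in EC arrays and -0.01 to 0.06 in ES arrays. For chromosome 14 the medians were -0.42 to -0.15 and -0.07 to 0.05. The median of the 51 genes in NCCIT changed sign with no centring (0.02) or with centring on all clusters (0.01). Against ES arrays of the same code set the median of NTERA2 on feeders was -0.25, and that of 2102Ep on feeders was -0.85.

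**Figure D1:**
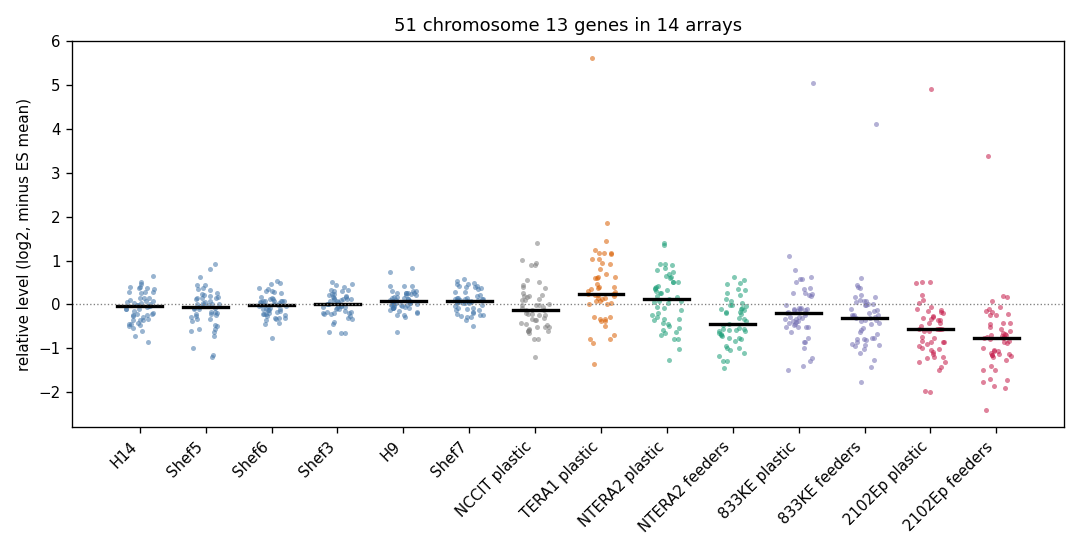
Relative level (log2, vertical axis, minus the mean of the 6 ES arrays) of the 51 genes in each of the 14 arrays, with 1 point per gene and the median as a black bar. The ES medians lie between -0.05 and 0.09, the lowest medians are those of 2102Ep (-0.57 and -0.77), and the points above 3 are LCP1.

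In 2102Ep, 34 of the 51 genes on plastic were below the lowest ES array, where 25.5% of all clusters were, and 37 on feeders, where 32.4% of all clusters were. Only 4 genes on plastic (15.2% of all clusters) and 1 on feeders (15.7%) were above the highest ES array. Under both growth conditions 32 genes were below ES, against 15.9% of all clusters. The gene above ES under both was LCP1, against 8.23% of all clusters. A median of -0.57 is a level 1.48-fold lower than the ES mean, and -0.77 is 1.71-fold lower.

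The low levels in 2102Ep extended to chromosome 13 genes outside the list. Over the 83 other brighter genes of chromosome 13 the median relative level was -0.85 on plastic and -0.87 on feeders. Taken over all 125 brighter genes, chromosome 13 had the lowest median of 23 chromosomes in 2102Ep under both conditions, with -0.79 on plastic and -0.86 on feeders. Next lowest were chromosome 11 on plastic (-0.26) and chromosome 18 on feeders (-0.30). In the other EC arrays chromosome 13 was the lowest in none: it ranked 7 and 2 from the bottom in 833KE on plastic and feeders, 13 and 5 in NTERA2, 11 in NCCIT and 18 in TERA1. The ES arrays gave chromosome 13 medians of -0.05 to 0.10.

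**Figure D2:**
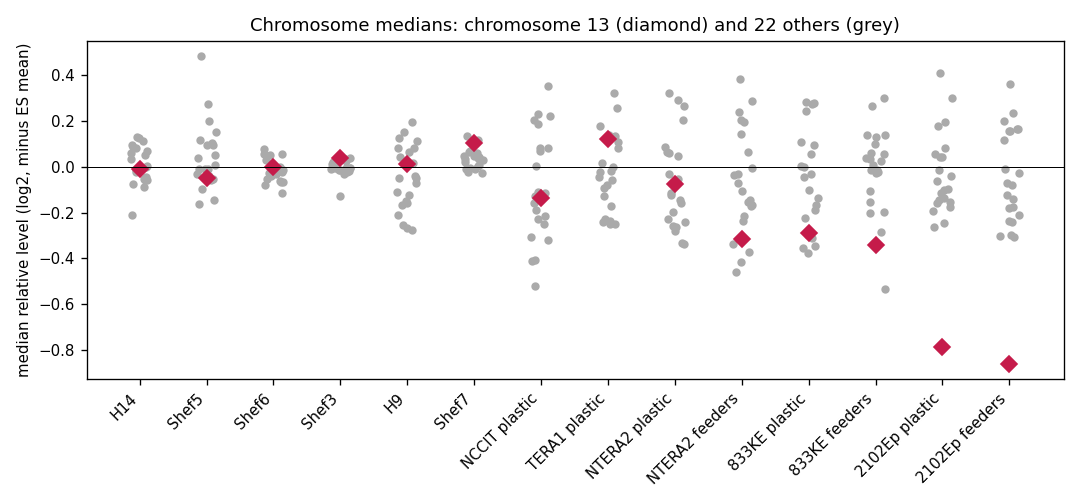
Median relative level (log2, vertical axis) of the brighter genes of each chromosome in each array, with chromosome 13 as a red diamond and 22 other chromosomes as grey points. In 2102Ep the diamond stands apart at -0.79 on plastic and -0.86 on feeders, while in every other array it lies within the range of the other chromosomes.

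Along the arm, the levels in 2102Ep were not even. The list was split into 6 blocks of 10 genes, of which 9, 7, 9, 8, 10 and 8 were measured at gene level. Block medians from the centromere outward were -0.16, -0.14, -0.75, -1.05, -0.85 and -1.02 on plastic. On feeders the same blocks had -0.42, -0.24, -0.84, -0.82, -1.07 and -1.12. In blocks 1 and 2, from ZMYM2 to RFC3, 5 of 16 genes on plastic and 7 of 16 on feeders were below every ES array. In blocks 3 to 6, from EXOSC8 onward, 29 of 35 on plastic and 30 of 35 on feeders were. Over all clusters the shares were 25.5% on plastic and 32.4% on feeders. The medians of those 35 genes were -0.85 and -1.0, against -0.15 and -0.33 for the 16 genes nearer the centromere. This boundary was chosen after the blocks had been seen. Against ES arrays of the same code set, the 35 genes had -0.86 and -0.95, and the 16 had -0.23 and -0.21.

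NTERA2 on plastic had a different profile. Its block medians were -0.08, 0.75, 0.33, 0.38, 0.15 and -0.49, so the genes of the middle of the arm were higher than in ES lines and those at the far end lower. In block 2, 6 of 7 genes were above every ES array, and in block 6, from IPO5 to CDC16, 6 of 8 were below every one and none was above. Over all 51 genes, 21 were above the ES range (15.4% of all clusters) and 12 below (28.2%). The same line on feeders did not repeat the profile: its blocks had -0.31, -0.54, -0.34, -0.46, -0.62 and -0.38, with 27 genes below the ES range (30.1% of all clusters) and 4 above (16.2%). Against ES arrays of the same code set, those feeder medians were -0.17, -0.19, -0.25, -0.56, -0.10 and -0.30. In NTERA2, 10 genes were below ES under both conditions (14.5% of all clusters) and 2, ITM2B and NDFIP2, were above (7.23%). The sign of the plastic median also depended on the genes taken: over all chromosome 13 genes with 1 symbol it was -0.18.

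TERA1 had block medians of 0.25, 0.39, 0.60, 0.11, 0.22 and 0.05, of which those of blocks 1, 2, 3 and 5 were above the ES arrays. The 83 other brighter genes of chromosome 13 had a median of 0.08 in TERA1, inside the range of ES medians of the listed genes. Of the 51 genes, 21 were above every ES array (18.5% of all clusters) and 8 below (21.1%). NCCIT had block medians of -0.11, -0.02, 0.10, -0.27, -0.17 and -0.29, and its 13 genes below the ES range (32.8% of all clusters) and 9 above (18.5%) were no larger a share than over all clusters. In 833KE every block median was below 0 except that of block 3 on feeders, which was inside the ES range, and that of block 3 on plastic turned positive under some settings. The blocks had -0.32, -0.37, -0.10, -0.29, -0.19 and -0.36 on plastic and -0.26, -0.43, 0.00, -0.29, -0.33 and -0.29 on feeders. On plastic 16 genes were below (24.1% of all clusters) and 11 above (16.9%), and on feeders 21 were below (16.4%) and 5 above (20.3%). In this line 12 genes were below ES under both conditions (9.68% of all clusters) and 5 above, namely STARD13, UFM1, LCP1, ITM2B and TM9SF2 (9.16%).

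**Figure D3:**
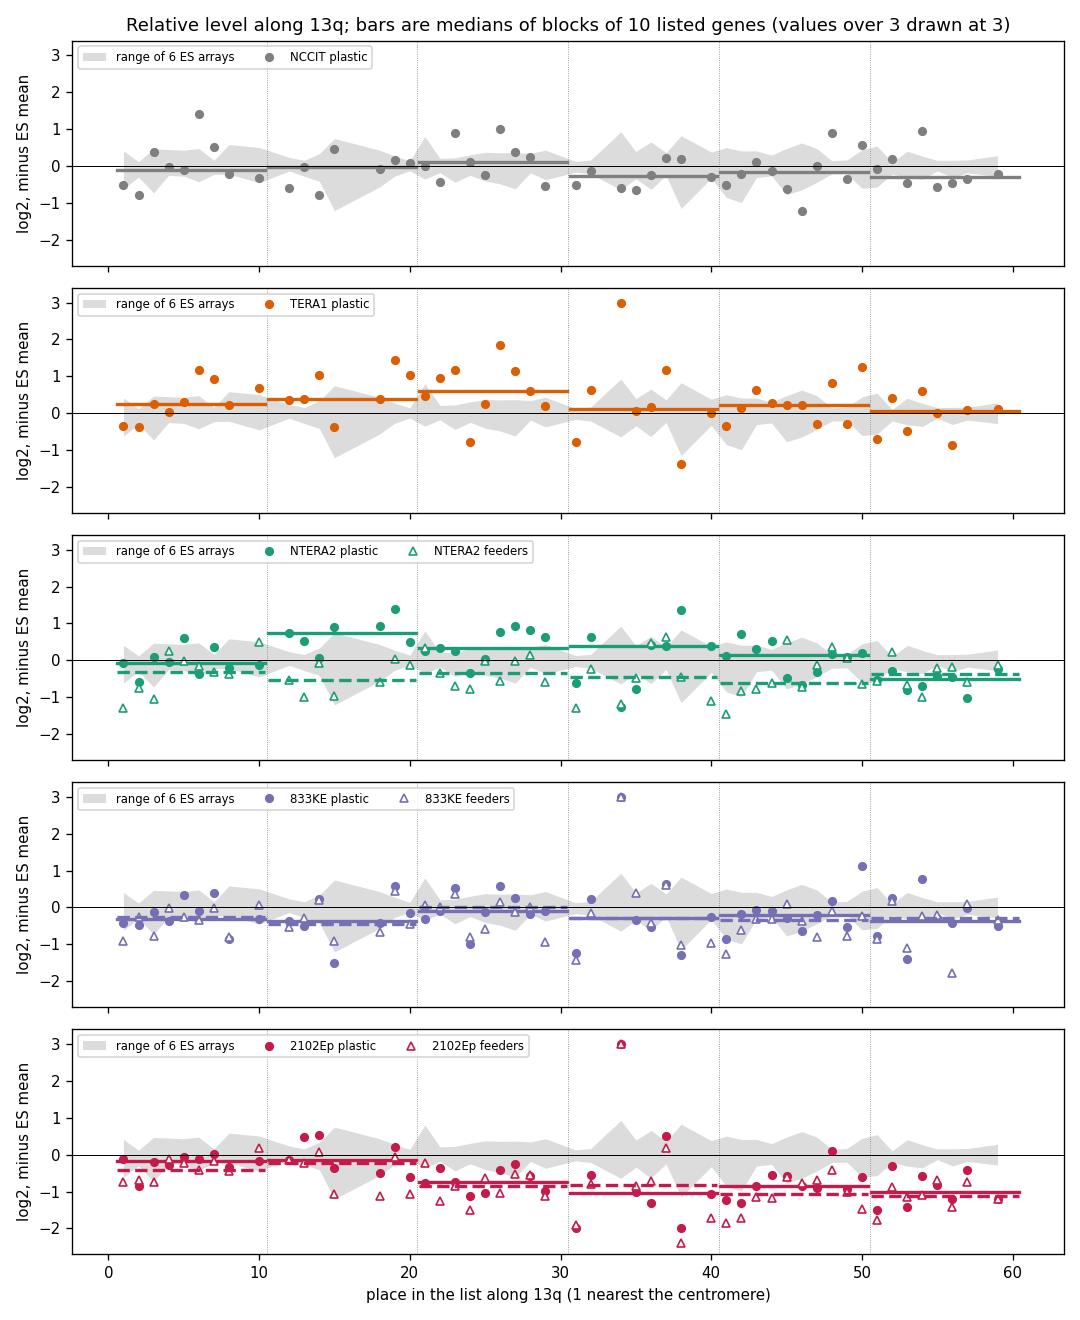
Relative level (log2, vertical axis) of each gene against its place in the list along 13q (horizontal axis), with 1 panel per EC line. Circles are arrays on plastic, triangles arrays on feeders, grey the range of the 6 ES arrays, and solid (plastic) and dashed (feeders) bars the block medians. In 2102Ep the bars drop from -0.14 and -0.24 in block 2 to -0.75 and -0.84 in block 3, and NTERA2 on plastic goes from 0.75 in block 2 to -0.49 in block 6.

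A running median over 11 neighbouring genes of the 125 brighter chromosome 13 genes traced the arm at finer steps. Neighbouring windows share most of their genes. It was below all 6 ES arrays in 104 of 115 windows in 2102Ep on plastic and in 115 of 115 on feeders. In 833KE it was below them in 82 windows on plastic and 112 on feeders, in NTERA2 in 39 and 73, and in NCCIT in 49. The highest values in 2102Ep on plastic and feeders, near SAP18 and POLR1D, were -0.02 and -0.17. The lowest value in 2102Ep on plastic was -1.50, between IPO5 and TM9SF2. On feeders it was -1.48, reached in several windows from between NDFIP2 and DNAJC3 to between IPO5 and TM9SF2. The stretch around IPO5, TM9SF2 and PCCA was also where 833KE was lowest (-0.90 on plastic and -1.08 on feeders), and where the running medians of NTERA2 on plastic (-0.56), NCCIT (-0.60) and TERA1 (-0.71) had their lowest values. In ES arrays the running medians there were between -0.31 and 0.18. NTERA2 on feeders was lowest elsewhere, at -0.70 between KPNA3 and INTS6. TERA1 was above all ES arrays in 55 windows and below them in 20, and was highest from between SAP18 and CENPJ to MTMR6 (0.83). NTERA2 on plastic was highest at TSC22D1 and NUFIP1 (0.63), and TSC22D1 was itself low in that array (-0.62).

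**Figure D4:**
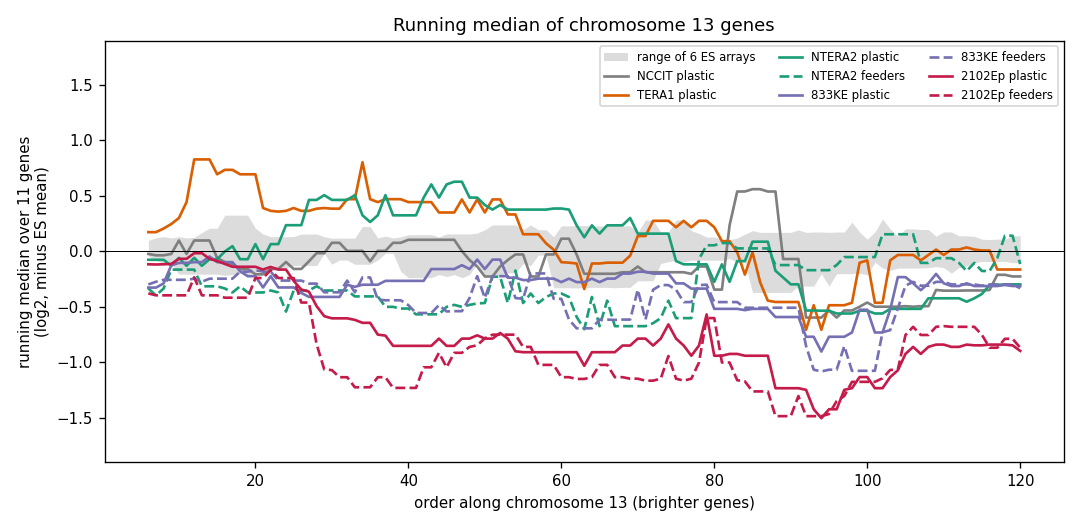
Running median (log2, vertical axis) over 11 genes of the relative level of 125 brighter chromosome 13 genes in their order along the chromosome (horizontal axis), with 1 line per EC array and the range of the 6 ES arrays in grey. The lines of 2102Ep run below the others over most of the arm, with a minimum of -1.50 on plastic, and 833KE, NCCIT, TERA1 and NTERA2 on plastic have their minima in the same stretch.

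Only 2 of the 51 genes, TSC22D1 and PCCA, were below the ES range in all 8 EC arrays, which 1.16% of all clusters were, and none was above it in all 8 (0.881% of all clusters). A further 4, LATS2, FOXO1, ING1 and CUL4A, were below in 7 of 8, as were 2.22% of all clusters. LCP1 had the widest range over EC lines. The 250 bases before the annotated start of TSC22D1, PCCA and LCP1 are shown because the first pair were below ES in all 8 EC arrays and LCP1 had the widest range. They are RefSeq sequence of build GRCh38.p14, 5′ to 3′ on the strand of the gene, with capitals for the TATA box letters TATAAA, the CCAAT box letters CCAAT and the GC box letters GGGCGG on either strand.
TSC22D1, minus strand, chr13:44576566-44576815: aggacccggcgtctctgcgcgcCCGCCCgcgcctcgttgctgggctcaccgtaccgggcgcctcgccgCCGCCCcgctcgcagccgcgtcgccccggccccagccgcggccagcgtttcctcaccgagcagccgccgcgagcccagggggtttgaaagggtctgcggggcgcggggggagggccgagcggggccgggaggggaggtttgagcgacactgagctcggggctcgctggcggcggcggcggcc
PCCA, plus strand, chr13:100088843-100089092: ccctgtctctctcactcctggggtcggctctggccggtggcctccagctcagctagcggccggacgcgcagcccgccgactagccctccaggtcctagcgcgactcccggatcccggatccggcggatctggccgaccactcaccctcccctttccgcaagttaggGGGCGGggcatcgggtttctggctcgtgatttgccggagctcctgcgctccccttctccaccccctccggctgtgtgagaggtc
LCP1, minus strand, chr13:46182178-46182427: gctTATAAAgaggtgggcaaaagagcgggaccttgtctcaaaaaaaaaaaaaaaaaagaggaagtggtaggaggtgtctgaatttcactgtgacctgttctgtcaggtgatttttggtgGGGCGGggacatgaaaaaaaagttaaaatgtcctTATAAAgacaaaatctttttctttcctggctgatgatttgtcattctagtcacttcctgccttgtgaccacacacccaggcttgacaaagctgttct

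The windows of TSC22D1 and PCCA were rich in CG dinucleotides, with 40 and 22 of them and GC contents of 79.6% and 69.2%, and that of LCP1 had 2 and 41.2%. The 57 listed genes with a promoter in the RefSeq table had a median of 22 CG dinucleotides (range 1 to 45), against 11 over all 35116 promoters. LCP1 was 1 of 3 listed genes with 2 or fewer, as were 22.9% of all promoters. Its window held 2 matches to the TATA box letters, found in 10.7% of all promoters, and 1 to the GC box letters, found in 42.6%. Letters were matched at any place in the window, and whether a match acts as a box was not tested. TSC22D1 had 2 matches to the GC box letters and PCCA 1, and none of the 3 windows held the CCAAT box letters, found in 32% of all promoters.

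TSC22D1 encodes a leucine zipper protein of the TSC22 family, induced by TGF-beta. Its deposited log2 level was 8.34 at the lowest, 8.61 at the median and 8.73 at the highest in the 6 ES arrays. On plastic it was 8.21 in NCCIT, 8.13 in NTERA2, 7.82 in TERA1, 7.44 in 833KE and 6.74 in 2102Ep, and on feeders 7.49 in NTERA2, 7.11 in 833KE and 6.93 in 2102Ep. No EC array overlapped the ES arrays, and the relative level went from -0.51 in NCCIT to -1.99 in 2102Ep on plastic. Of its 20 brighter probesets, 18 were below every ES array in 2102Ep under each condition, against 18.7% and 22.4% of all brighter probesets, and 13 were in NCCIT (25.5%).

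PCCA encodes the alpha subunit of propionyl-CoA carboxylase, a mitochondrial enzyme. In ES arrays its deposited log2 level was 6.86 at the lowest, 7.21 at the median and 7.80 at the highest. On plastic it was 6.99 in NCCIT, 6.86 in TERA1, 6.69 in NTERA2, 6.04 in 2102Ep and 6.00 in 833KE, and on feeders 6.83 in NTERA2, 6.41 in 2102Ep and 6.16 in 833KE. The deposited level of NCCIT overlapped the ES arrays, and its relative level of -0.46 did not (ES -0.31 to 0.41). The relative level was lowest in 2102Ep and 833KE on plastic, at -1.42 and -1.40.

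LCP1, plastin 2, is an actin-bundling protein of blood cells that is also made by many tumour cells. The lowest, median and highest deposited log2 levels in ES arrays were 5.01, 5.52 and 6.57. LCP1 was at 11.31 in TERA1, 10.79 in 833KE and 10.73 in 2102Ep on plastic, and at 5.20 in NCCIT and 4.57 in NTERA2. On feeders it was at 9.73 in 833KE, 9.29 in 2102Ep and 4.68 in NTERA2. The EC lines thus fell into separate levels, with TERA1, 833KE and 2102Ep far above the ES arrays and NTERA2 below them. Relative levels (log2) were 5.62 in TERA1, 5.04 and 4.11 in 833KE on plastic and feeders, and 4.92 and 3.39 in 2102Ep. The ES median is under the median of all clusters (6.30) and its signal over background is unknown, so these differences are not given as folds. Near it in the list, TSC22D1, NUFIP1, ESD and MED4 had relative levels of -1.99, -0.56, -1.03 and -1.31 in 2102Ep on plastic, and ITM2B had 0.51, above the ES range as LCP1 was.

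**Figure D5:**
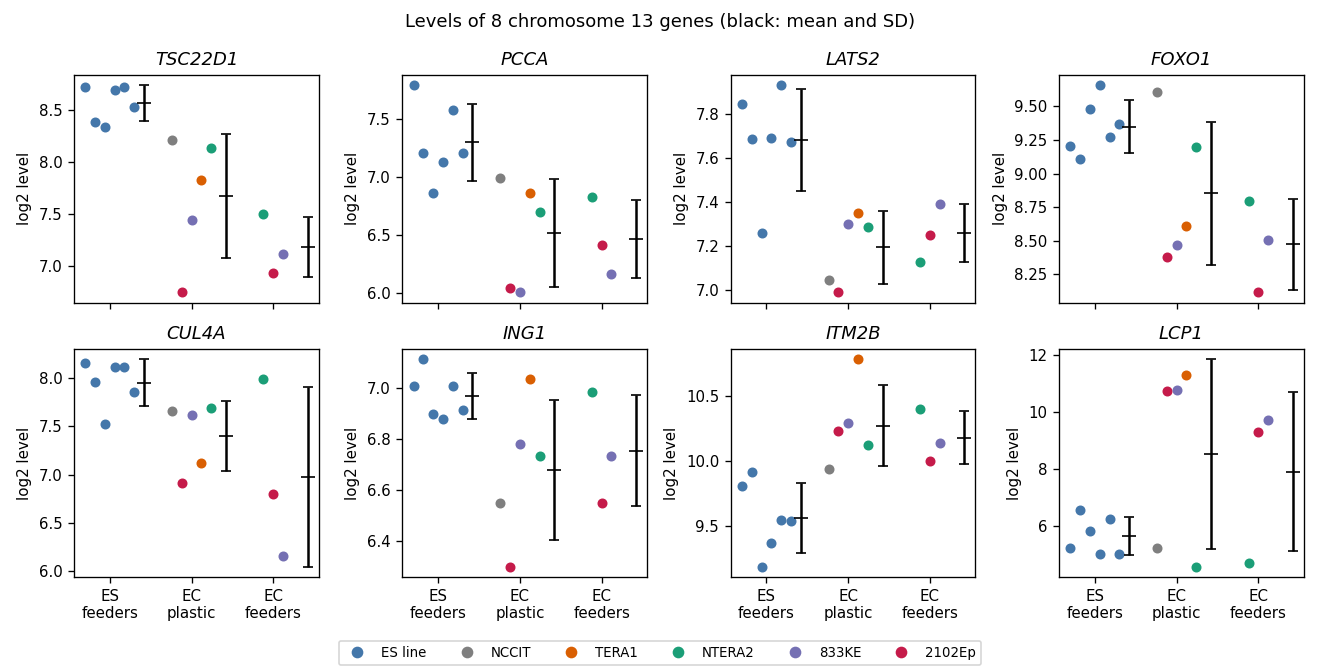
Deposited log2 level (vertical axis) of 8 genes in ES lines, in EC lines on plastic and in EC lines on feeders, with 1 point per array coloured by line and the mean and SD of each group in black. TSC22D1 has no EC point in the ES range, LCP1 is at 9.29 or above in TERA1, 833KE and 2102Ep and at 5.20 or below in NCCIT and NTERA2, and each panel has its own axis.

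Grouped by role, the genes gave small counts, which are set beside the share of all clusters and, for 2102Ep, beside that of all 51 genes (66.7% on plastic and 72.5% on feeders). Of the 6 genes of growth control and the cell cycle read at gene level, 5 were below the ES range in 833KE on plastic (24.1% of all clusters) and 4 on feeders (16.4%). In 2102Ep 5 were under each condition (25.5% and 32.4% of all clusters), in NTERA2 3 under each (28.2% and 30.1%), in NCCIT 3 (32.8%) and in TERA1 2 (21.1%). LATS2, a kinase of the Hippo pathway that restrains growth, had deposited log2 levels of 7.26, 7.69 and 7.93 (lowest, median, highest) in ES arrays. It was at 7.05 in NCCIT, 6.99 in 2102Ep, 7.30 in 833KE, 7.35 in TERA1 and 7.29 in NTERA2 on plastic, and at 7.13 in NTERA2, 7.39 in 833KE and 7.25 in 2102Ep on feeders. A single ES array, Shef6, overlapped these values; the other ES arrays were at 7.67 or above. CUL4A, the scaffold of a ubiquitin ligase, was at 7.52, 8.04 and 8.15 in ES arrays, at 6.91 in 2102Ep, 7.12 in TERA1, 7.62 in 833KE, 7.66 in NCCIT and 7.68 in NTERA2 on plastic, and at 6.15 in 833KE, 6.80 in 2102Ep and 7.98 in NTERA2 on feeders. Its lowest relative level, -1.77, was in 833KE on feeders, against -0.43 in the same line on plastic.

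ING1, a chromatin reader that binds methylated histone H3, spanned 6.88 to 7.11 in ES arrays on the deposited log2 scale, with a median of 6.96. On plastic it was at 6.30 in 2102Ep, 6.55 in NCCIT, 6.73 in NTERA2, 6.78 in 833KE and 7.03 in TERA1, and on feeders at 6.55 in 2102Ep, 6.73 in 833KE and 6.98 in NTERA2. TERA1 and NTERA2 on feeders were within the ES range on that scale. The relative level of NTERA2 on feeders, -0.20, was below it and turned to 0.01 with no centring. CDK8, the kinase of the mediator complex, was low in 833KE, with 7.38 on plastic and 7.32 on feeders against 7.80, 8.10 and 8.60 in ES arrays. In the other 6 EC arrays it was between 7.95 and 8.42, inside the ES range on the deposited scale. Its relative level was also below the ES range (lowest -0.22) in NTERA2 on feeders (-0.37) and in 2102Ep on plastic (-0.34) and feeders (-0.44). With ES arrays of the same code set as reference, those feeder values were -0.17 and -0.24. CDC16, a subunit of the anaphase-promoting complex at the far end of the arm, had relative levels of -1.21 and -1.19 in 2102Ep and 0.12 in TERA1. CENPJ, a centriole protein near the centromere, was at -0.07 and -0.23 in 2102Ep.

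Of the 8 transcription factors and chromatin genes read at gene level, 5 on plastic and 6 on feeders were below the ES range in 2102Ep (25.5% and 32.4% of all clusters), a share near that of all 51 genes. FOXO1, a forkhead factor held in check by insulin and AKT signalling, had 9.11, 9.32 and 9.66 (lowest, median, highest deposited log2 level) in ES arrays. It was at 9.61 in NCCIT, 9.20 in NTERA2, 8.61 in TERA1, 8.46 in 833KE and 8.38 in 2102Ep on plastic, and at 8.79 in NTERA2, 8.51 in 833KE and 8.12 in 2102Ep on feeders. NCCIT was the line whose relative level (0.10) stayed within the ES range. ELF1, an ETS family factor, went the other way in several lines: its relative level was 1.85 in TERA1, 1.02 in NCCIT, 0.78 in NTERA2 on plastic and 0.57 in 833KE on plastic, all above the ES range of -0.48 to 0.36. In NTERA2 on feeders it was -0.57, below that range, and in 2102Ep it was -0.41 on plastic and -1.04 on feeders. Against ES arrays of the same code set, the feeder values of ELF1 were -0.15 in NTERA2 and -0.63 in 2102Ep. MED4, a mediator subunit, was at -1.31 and -0.72 in 2102Ep.

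Of 3 nuclear transport genes, 2 on plastic (25.5% of all clusters) and 3 on feeders (32.4%) were below the ES range in 2102Ep, which with so few genes is not set apart from the whole list. IPO5, an importin, had relative levels of -1.50 on plastic and -1.76 on feeders there, -0.77 and -0.85 in 833KE, -0.71 in TERA1, -0.53 and -0.57 in NTERA2 and -0.07 in NCCIT, against -0.57 to 0.54 in ES arrays. KPNA3, an importin alpha, was at -1.08 and -1.73 in 2102Ep, and XPO4, an exportin near the centromere, at -0.19 and -0.73, and lower still in NTERA2 on feeders (-1.05). Against ES arrays of the same code set, the feeder values of XPO4 were -0.12 in 2102Ep and -0.44 in NTERA2. Those of IPO5 were -1.35 and -0.15, and KPNA3 in 2102Ep had -1.43. Of 7 RNA processing genes, 5 on plastic (25.5% of all clusters) and 4 on feeders (32.4%) were below the ES range in 2102Ep, again near or under the share of all 51 genes. Among these INTS6, an Integrator subunit, was at -1.22 and -1.86, and RBM26 at -0.94 and -1.0. PAN3, a subunit of a poly(A) nuclease nearer the centromere, was above the ES range in 2102Ep on plastic (0.49) and below 0 but within it on feeders (-0.24).

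Of 8 genes of protein folding and the ubiquitin system, 5 were above the ES range in TERA1 (18.5% of all clusters), and 4 each in NCCIT (18.5%), NTERA2 on plastic (15.4%) and 833KE on plastic (16.9%). Below it in 2102Ep were 4 on plastic (25.5%) and 5 on feeders (32.4%). POMP, a chaperone of proteasome assembly, had relative levels of 1.03 in TERA1 and -0.79 in NCCIT, with ES arrays between -0.41 and 0.34. UFM1, a ubiquitin-like modifier, was at 1.17 in TERA1, 0.91 in NCCIT, 0.52 and 0.37 in 833KE and 0.26 in NTERA2 on plastic, and at -0.69 in NTERA2 on feeders and -0.75 and -0.84 in 2102Ep. SUGT1, a cochaperone of HSP90, was at -1.32 and -1.71 in 2102Ep. Of the 4 genes of membranes and the secretory path, ITM2B, a membrane protein processed by furin, stood out: its deposited log2 level was 9.19, 9.54 and 9.91 in ES arrays and 9.94 in NCCIT, 10.12 in NTERA2, 10.24 in 2102Ep, 10.29 in 833KE and 10.78 in TERA1 on plastic. On feeders it was at 10.00 in 2102Ep, 10.14 in 833KE and 10.41 in NTERA2. All 8 EC arrays exceeded the ES arrays on this scale, while on the centred scale NCCIT (0.22) and 2102Ep on feeders (0.18) were inside the ES range of -0.25 to 0.36.

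Cytoskeletal and other genes varied line by line. STARD13, a dim cluster, had relative levels of 1.44 in TERA1 and 1.40 in NTERA2 on plastic, 0.58 and 0.45 in 833KE, and 0.04 in NTERA2 on feeders. KATNAL1, a microtubule-severing protein, had a wide range over ES arrays themselves, from -1.21 in Shef5 to 0.75 in H9, and of the EC arrays 833KE on plastic (-1.50) and NTERA2 on plastic (0.91) were outside it. CAB39L, a scaffold of the LKB1 kinase and a dim cluster, ranged from -1.15 to 0.82 in ES arrays, and was at -1.98 and -2.40 in 2102Ep, -1.37 in TERA1, -1.28 and -1.01 in 833KE, and 1.35 in NTERA2 on plastic. Low-code ES arrays were lower than high-code ones by 1.44 for KATNAL1 and 1.20 for CAB39L. Against ES arrays of the same code set, KATNAL1 was at -1.97 and -1.40 in 833KE on plastic and feeders and 0.43 in NTERA2 on plastic. MTMR6, a lipid phosphatase, was at 1.40 in NCCIT and 1.17 in TERA1 and between -0.42 and -0.10 in the other EC arrays. LMO7, a dim cluster, was lowest in NCCIT at -1.21.

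The 7 genes read only at exon level, as the median over their probesets, covered the same spread. TRIM13, a ubiquitin ligase of the endoplasmic reticulum, had relative levels of -1.73 and -2.11 in 2102Ep on plastic and feeders, -1.53 and -0.91 in 833KE, -0.73 in TERA1, -0.03 and -1.45 in NTERA2 and 0.29 in NCCIT, against -0.65 to 0.40 in ES arrays. BRCA2, a DNA repair gene, was at -0.07 in NCCIT, 0.31 in TERA1, 0.75 and -0.70 in NTERA2, 0.33 and -0.72 in 833KE, and -0.58 and -0.87 in 2102Ep, so only NTERA2 on plastic was outside the ES range of -1.03 to 0.56. TFDP1, the partner of E2F factors, was at 1.12 in NTERA2 on feeders and -0.33 on plastic, with -0.90 and -0.67 in 2102Ep and ES arrays between -0.26 and 0.20. MTIF3, a mitochondrial translation initiation factor, was above its ES range in TERA1 (0.94), NTERA2 on plastic (0.80), 833KE on plastic (0.36) and both 2102Ep arrays (0.58 and 0.27). HMGB1, a chromatin protein, was at -0.79 in NCCIT, -0.74 and -0.75 in 833KE and 0.36 and -0.39 in 2102Ep. TPT1 was at -0.75 and -0.43 in 2102Ep and -0.55 in NCCIT. WASF3 was below its ES range only in 833KE on feeders (-0.67).

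Counts of single probesets gave the largest share below ES in 2102Ep on feeders. The 58 genes with probesets had 764 brighter ones. In 2102Ep 49.9% of these on plastic and 64.9% on feeders were below every ES array, against 18.7% and 22.4% of all brighter probesets, and 6.54% and 3.53% were above (19.3% and 20.4% of all). In 833KE 30.4% and 44.5% were below (19.9% and 18.2% of all) and 10.7% and 7.07% above (20.5% and 19.6% of all). In NTERA2 20.4% on plastic and 42.8% on feeders were below (20.4% and 21.9% of all), in NCCIT 21.2% (25.5%), and in TERA1 13.5% were below (19.7%) and 30.9% above (20.2%).

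Growing the 3 EC lines on feeders in place of plastic went with lower levels of many of the genes, but none passed the test. The median of feeders minus plastic over the 51 genes was -0.43 in NTERA2 (34 genes lower), -0.26 in 2102Ep (37 lower) and -0.16 in 833KE (32 lower). Over all brighter clusters it was 0.01, -0.05 and 0.09, with 48.9%, 53.7% and 42.4% of them lower on feeders. In NTERA2 and 2102Ep the feeder array has a low code and the plastic array a high one, and with ES arrays of the same code set as reference the medians were -0.43 and -0.09. Both 833KE arrays have high codes. In limma, with the line as a block, 0 of 22011 clusters were called at an adjusted p of 0.05, and 3276 (14.9%) had an unadjusted p under 0.05. Of the 51 genes, 14 did, of which 13 were lower on feeders in all 3 lines and 1, GTF3A, was higher. For 11 of the 13 lower genes the low-code ES arrays also had a lower mean than the high-code ones. For GTF3A they had a higher mean, by 0.71. The part of the array codes in the difference between feeders and plastic was not tested. Fibroblast markers (the median of 8, 3 of them among the brighter clusters) were at 5.05 to 5.25 in EC arrays on feeders, 4.81 to 5.01 on plastic and 5.04 to 6.21 in ES arrays, and their part was not tested either.

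The smallest p belonged to DNAJC3, a chaperone of the endoplasmic reticulum that inhibits the kinase PKR. Its deposited log2 level on plastic was 8.65 in NTERA2, 9.50 in 833KE and 7.83 in 2102Ep, and on feeders 7.84, 8.02 and 7.06. It was lower on feeders in 3 of 3 lines, by 1.02 in the fit (SE 0.21, adjusted p = 0.24 by limma with Benjamini-Hochberg, n = 3 lines). KPNA3 was at 9.81, 9.08 and 8.31 on plastic and 8.33, 8.25 and 7.76 on feeders in the same order, lower by 0.96 on average (SE 0.23, limma adjusted p = 0.25). XPO4 went from 8.83, 8.52 and 8.52 to 7.71, 7.75 and 8.08, and ZMYM2, a zinc finger protein that binds SUMO, from 9.60, 9.15 and 9.53 to 8.41, 8.56 and 9.01. Each of these 4 genes was lower on feeders in all 3 lines, and low-code ES arrays were lower than high-code ones by 0.90 for DNAJC3, 0.45 for KPNA3, 0.91 for XPO4 and 0.81 for ZMYM2.

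The comparisons of EC with ES by group used the contrasts by which the genes were chosen, so their calls are counted beside those of all clusters and are no evidence about the listed genes. For EC on plastic against ES, limma called 718 clusters higher (3.26%) and 294 lower (1.34%). Of the 51 genes, 1 was called, ITM2B, as higher. On arrays centred on the brighter clusters, and after quantile normalisation, that call was lost and 4 genes were called as lower under each. Lower calls over all clusters numbered 577 and 439 under these settings, and higher calls 506 and 578. Without the array of TERA1, 833KE, H14, Shef3, H9 or Shef7 no gene of the list was called, and 416 to 851 of all clusters were higher and 171 to 266 lower. In these fits 9 to 12 listed genes had an unadjusted p under 0.05 in limma (13, against 19.2% of all clusters, with every array in). Without NCCIT, 2102Ep or NTERA2 the number called was 5, 3 and 2. Of all clusters, 853, 437 and 770 were then higher and 404, 167 and 428 lower. With ES arrays against EC on feeders, 343 clusters were higher in EC (1.56%) and 161 lower (0.731%), and 4 listed genes were called, all lower: TSC22D1, INTS6, KPNA3 and FOXO1. Without 833KE, 2102Ep, Shef3 or Shef7 the number was 1, and without Shef6 or H9 it was 2. In these fits 123 to 294 of all clusters were higher and 44 to 108 lower.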

How the data were processed

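The study measured RNA on Affymetrix Human Exon 1.0 ST arrays. The deposited gene-level and exon-level values are log2 values made by the authors with RMA; RMA, Affymetrix Expression Console and limma are named in the submitters' processing notes without versions, and the genome build is not given in the sources used here. The genes and gene lists were chosen with earlier results of these data known. Named genes are the 2 lowest and 2 highest per EC line, those outside the ES range the same way in 8 EC arrays, the 4 smallest p for feeders against plastic, the 3 widest over ES, and BRCA2, LATS2, FOXO1, CDK8, CUL4A and ING1; genes outside this rule illustrate a role. Symbols come from GEO's platform annotation and RefSeq (GRCh38.p14). The listed order differed from RefSeq in 4 neighbouring pairs, none across a block.

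The tests ran in R 4.3.3 with lmFit and eBayes of limma 3.58.1 (two-sided, Benjamini-Hochberg over all clusters, threshold 0.05) on deposited values, checked on simulated data. Feeders and plastic were paired by cell line, from the titles, with line as a block. The number of arrays limits the precision. Alternatives were other centrings, quantile normalisation, other ES references, exon-level values, filters on dim clusters, variance models, the array codes and leaving out arrays. Figures were drawn with matplotlib 3.10.9.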

Additional observations from a re-analysis of the deposited data

Results flagged for a closer look

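In the named genes and the medians, 3 of 42 groups of arrays tested held an array far from the others, and chance flags about 1 in 20 such groups. LATS2 in the ES line Shef6 had a relative level of -0.30, with the other ES lines between 0.01 and 0.12. CUL4A was at -0.31 in the same line, with the others between -0.01 and 0.16. CDK8 was at 0.58 in Shef7, with the others between -0.22 and 0.04.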

How the results depend on the processing

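Over 8 EC arrays and 8 other settings, the median of the 51 genes kept its sign and moved by less than the SD between lines in 60 of 64 values. It reversed in NCCIT with no centring (0.0193) and with centring on all clusters (0.0119), and in NTERA2 on plastic with all chromosome 13 genes (-0.179). These reversals were moves smaller than that SD. In 2102Ep on feeders it moved to -0.517 with no centring. Block medians reversed in NCCIT for block 1 (0.0407 with no centring, 0.0333 centred on all clusters), 2102Ep on feeders for block 2 (0.0182 with no centring) and 833KE on plastic for block 3 (0.0609 centred on all clusters, 0.0643 after quantile normalisation). Of the block values, 317 kept their sign and stayed within the SD. ING1 in NTERA2 on feeders became 0.0138 with no centring. Leaving out each ES array in turn gave medians of -0.18 to -0.08 in NCCIT, 0.26 to 0.33 in TERA1, 0.08 to 0.19 and -0.46 to -0.37 in NTERA2 on plastic and feeders, -0.24 to -0.16 and -0.32 to -0.25 in 833KE, and -0.60 to -0.56 and -0.83 to -0.77 in 2102Ep. In limma, called genes for EC on plastic against ES numbered 4 after quantile normalisation and 4 with arrays centred on brighter clusters, all lower in EC. Of all 22011 clusters, 439 and 577 were called lower under these settings and 578 and 506 higher. On the deposited scale 294 were lower and 718 higher. Nothing about the listed genes is read from these calls. Called genes of the list numbered 2 with brighter clusters only (1 higher, 1 lower), where 697 of 11006 clusters were higher and 237 lower. With all 14 arrays sharing the spread they numbered 4 (3 higher, 1 lower), where 758 of 22011 clusters were higher and 299 lower. Leaving out an array gave 0 to 5, with 416 to 853 of all clusters higher and 167 to 428 lower. For EC on feeders against ES they numbered 2 with all 14 arrays sharing the spread, where 212 of all clusters were higher and 94 lower. Leaving out an array gave 1 to 5, with 123 to 385 of all clusters higher and 44 to 229 lower. For feeders against plastic 0 genes of the list were called under every setting run; with brighter clusters only, limma called 8 clusters higher and 21 lower, and without the replicate block (line not in the fit) 0 and 1, with 4 listed genes at an unadjusted p under 0.05. The causes were not tested. Averaging several clusters of a gene was not run, since no gene had more than 1 with a single symbol.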
